A study of Mus musculus with 4 samples.

Results

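The lipoxygenase family was followed through 4 RNA-seq libraries of whole mouse embryos lacking or carrying Ddx6, the gene of a DEAD-box RNA helicase that takes part in repressing and degrading mRNAs. Its 8 members, among 24421 genes in the count table, were the 7 lipoxygenase genes Alox5, Alox8, Alox12, Alox12b, Alox12e, Alox15 and Aloxe3, and Alox5ap, which encodes a membrane protein that presents substrate to the product of Alox5. The family was chosen by measured values: Alox15 and Alox12e stood among the highest genes of both knockout libraries relative to E8.5 wild type, and the other members were added by name. Values from that contrast, and from other contrasts with the same knockout or E8.5 wild-type libraries, are therefore given as descriptions without a test.

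All embryos were of the ICR strain. The wild-type groups were 1 library from embryonic day 7.5 (E7.5 WT) and 1 from embryonic day 8.5 (E8.5 WT), and the number of embryos in each is not given in the sources used here. The knockout group had 2 libraries of Ddx6 -/- embryos at embryonic day 8.5 (KO1 and KO2), from crosses of heterozygotes whose mutant allele lacks exon 5, removed from a floxed line by a CAG-Cre deletion line rather than in chosen tissues. KO1 pooled 2 embryos, 1 without and 1 with head folds, and KO2 pooled 3 embryos without head folds, so genotype cannot be told apart from morphological stage by the day 8.5 comparison alone.

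Lipoxygenases insert molecular oxygen into polyunsaturated fatty acids such as arachidonic acid, which phospholipases A2 release from membranes. The hydroperoxides are reduced to hydroxy acids or turned into leukotrienes, lipoxins and hepoxilins, while cyclooxygenases turn the same substrate into prostanoids. Alox15, the leukocyte-type enzyme of the mouse, is known from macrophages and eosinophils and can also oxidize fatty acids still bound in phospholipids, Alox12 from platelets, and Alox12b and Aloxe3 from the permeability barrier of the epidermis.

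Libraries held between 8198402 (KO1) and 12562640 (E8.5 WT) counts, and 16511 to 17112 genes had at least 1 read. The targeted gene, Ddx6, had 2943 reads at E7.5 and 5715 at E8.5 in wild type, 706 in KO1 and 929 in KO2, a mean log2 change of -2.54 ± 0.10 (SD, n = 2) against E8.5 WT, although counts over the whole gene do not isolate the deleted exon. All 10 markers of the embryo proper had reads in every library. Levels are CPM, reads scaled by library size with TMM factors (trimmed mean of M-values), log2 changes are differences of log2 CPM with a prior count of 2, and a gene was called when its log2 change was above 1 or below -1. Intervals on a level, a ratio or a share are exact 95% intervals of the reads (Poisson for a level, Clopper-Pearson for a ratio or share) and cover counting error only. Where 4 values of a gene follow each other, they are those of E7.5 WT, E8.5 WT, KO1, KO2.

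Of the 8 members, 5 reached the minimum of 10 reads in at least 1 library (Alox15, Alox12e, Alox12, Aloxe3 and Alox5ap). Alox5, Alox8 and Alox12b stayed under it in all 4 libraries and were not entered in counts of calls. A member passing this minimum through the knockout libraries alone, as Alox12e and Alox12 did, leaned towards a higher value there, so the counts of calls that include it carry no weight of their own.

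Alox15 held most of the family's reads in every library. It had 267 reads at E7.5 and 76 at E8.5 in wild type, 661 in KO1 and 892 in KO2. The corresponding levels were 22.4 CPM (19.8 to 25.3), 6.18 CPM (4.87 to 7.74), 78.7 CPM (72.8 to 84.9) and 73.2 CPM (68.5 to 78.2). Both knockout libraries were above both wild-type libraries, E8.5 WT was the lowest, and no interval of a knockout library met that of a wild-type library. Among the 14393 genes that reached the count minimum, Alox15 moved from rank 10496 by CPM in E8.5 WT and rank 7318 in E7.5 WT to rank 3199 in KO1 and 3443 in KO2.

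Relative to wild-type embryos of the same day, the log2 change of Alox15 was 3.63 for KO1 and 3.53 for KO2, with a mean of 3.58 ± 0.07 (SD, n = 2). As a ratio of CPM, KO1 was 12.7-fold higher (interval of the log2 ratio 3.33 to 4.03), and KO2 was 11.8-fold higher (3.23 to 3.92). By the smaller of the 2 log2 changes, Alox15 ranked 1 of the 495 genes called higher in both knockout libraries, ahead of Slc17a7 at 3.15 and Aldh1l1 at 3.15. Alox12e ranked 4 at 3.06, and the next gene below it was Serpinb9b at 2.88. These values are those by which the family was selected. The ranks are those at a prior count of 2. At a prior count of 0.5 the mean log2 change was 4.97 for Alox12e, which had no read in E8.5 WT, and 3.61 for Alox15.

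Against the younger wild-type embryos Alox15 was also higher, by 3.51-fold in KO1 (3.04 to 4.06) and 3.26-fold in KO2 (2.84 to 3.75), with log2 changes of 1.80 and 1.70. Only 108 genes (0.75% of those tested) were called higher in both knockout libraries than in both wild-type libraries, and Alox15 was the 1 of the 5 tested members among them. The knockout libraries differed from each other by a log2 change of -0.10 (interval of the log2 ratio -0.25 to 0.04, KO2 relative to KO1). Both comparisons use the same knockout values as the choice of the family.

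**Figure D1:**
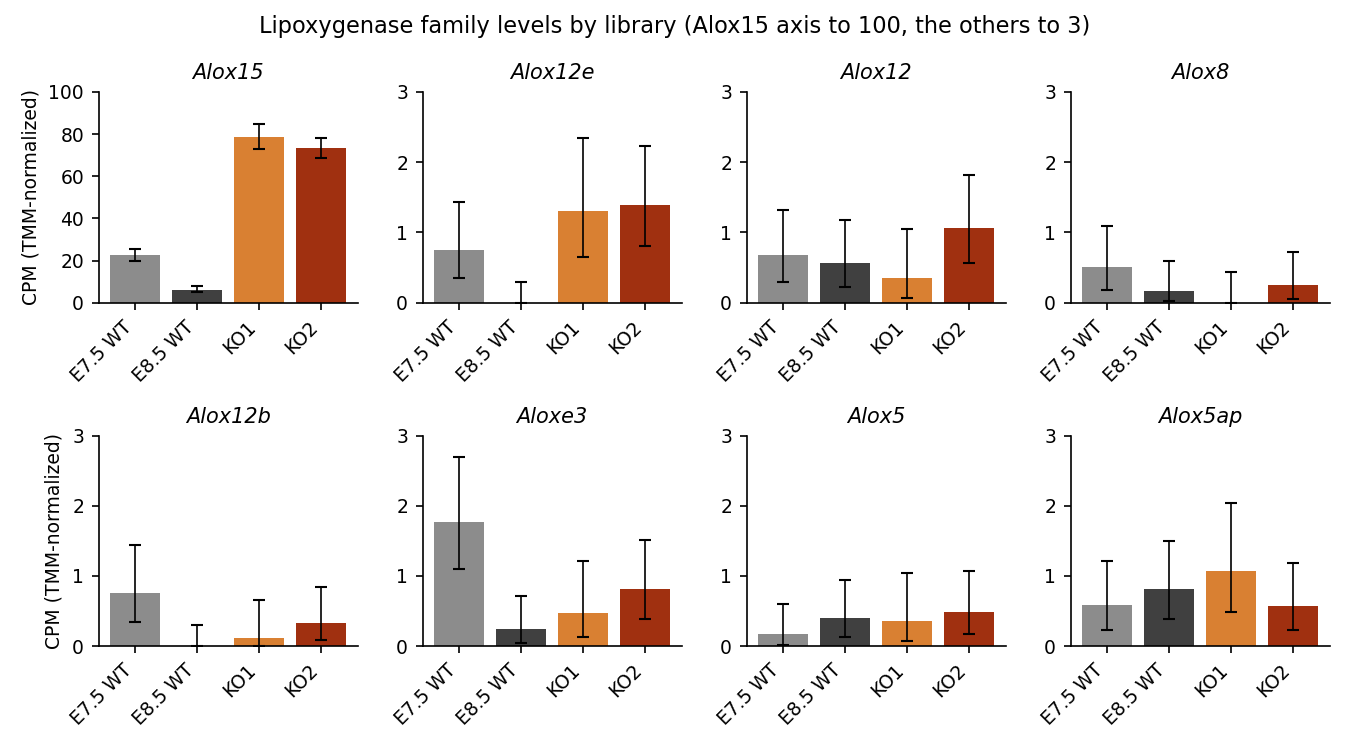
Level of each member in both wild-type and both knockout libraries, as TMM-normalized CPM (bars, 1 library each) with exact 95% Poisson intervals of the reads (whiskers). The Alox15 axis runs to 100 CPM and the other axes to 3 CPM: Alox15 stood at 78.7 and 73.2 CPM in the knockout libraries, and Alox12e had no read in E8.5 WT.

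Alox12e, the epidermal-type relative of Alox15, was rare in all libraries. It had 9 reads at E7.5 and 0 at E8.5 in wild type, 11 in KO1 and 17 in KO2. Its levels were 0.757 CPM (0.346 to 1.44) in E7.5 WT, 1.31 CPM (0.654 to 2.34) in KO1 and 1.40 CPM (0.813 to 2.23) in KO2, while 0 reads in E8.5 WT allowed up to 0.244 CPM at a floor of 3 reads and up to 0.300 CPM by the exact interval. E8.5 WT alone lacked reads, and the intervals of the other 3 libraries overlapped.

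Set against that floor, Alox12e was at least 5.37-fold higher in KO1 and at least 5.72-fold higher in KO2 than in E8.5 WT, without the error of the knockout reads. With that error, the exact interval of the ratio began at 3.67 in KO1 and 4.16 in KO2. The fitted log2 changes of 3.06 and 3.14 (mean 3.10 ± 0.06, SD, n = 2) depend on the prior count and are no bound. Against E7.5 WT the ratios were 1.73 in KO1 (0.652 to 4.73) and 1.84 in KO2 (0.777 to 4.69), and both intervals included no change. Thus Alox15 lay above both wild-type stages in the knockout libraries, whereas for Alox12e a difference from E7.5 WT was not detectable at this depth.

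Alox15 and Alox12e lie next to each other on the minus strand of chromosome 11, and their coding sequences are the most alike of the 21 pairs among the 7 lipoxygenase genes. Alox15 spans chr11:70344152-70352031 and Alox12e spans chr11:70315610-70322628 (GRCm38), 21.5 kb apart, and each coding sequence has 14 exons. Over 1969 aligned coding bases 69.3% were identical, against 67.7% for Alox12 and Alox15 and 58.3% for the least alike pair, Alox12b and Alox12e. The longest run of identical bases shared by Alox15 and Alox12e was 16 bases, in exon 6 of each coding sequence. It is shown in capitals within the surrounding 76 bases, at chr11:70349626-70349701 for Alox15 and chr11:70320812-70320887 for Alox12e, because it is the longest stretch identical in both coding sequences. Both are from GENCODE transcripts, written 5′ to 3′ along the coding strand.
Alox15: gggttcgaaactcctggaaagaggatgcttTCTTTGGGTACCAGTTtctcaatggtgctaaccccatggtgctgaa
Alox12e: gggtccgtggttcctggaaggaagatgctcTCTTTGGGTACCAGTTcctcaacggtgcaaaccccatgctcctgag

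Outside that run the windows differed at many bases on both sides.

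The proximal promoter of Alox12e is shown because Alox12e was among the highest knockout genes and had no read in E8.5 WT. It spans chr11:70322481-70322780, minus strand, from 250 bases before to 50 after the annotated start (RefSeq, GRCm38.p6), with the GC box in capitals. By GENCODE the gene begins further upstream, at chr11:70322628. Part of this window, the GC box included, therefore lies within the gene by that annotation.
Alox12e promoter: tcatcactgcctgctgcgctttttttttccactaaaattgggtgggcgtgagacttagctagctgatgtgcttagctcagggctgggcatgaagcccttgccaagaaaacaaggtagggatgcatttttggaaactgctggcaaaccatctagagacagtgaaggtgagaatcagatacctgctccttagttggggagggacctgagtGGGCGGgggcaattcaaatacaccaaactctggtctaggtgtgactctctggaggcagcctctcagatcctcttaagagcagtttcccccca

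Searched on both strands, this window held 1 GC box (GGGCGG), present in 35.7% of all 32851 promoters of the same length, and 1 CCAAT box (CCAAT), present in 37.4%. None of the other motifs searched was found in it: the TATA box (TATAAA, in 13.6% of promoters), the STAT6 palindrome (TTC and GAA with 4 bases between them, in 6.95%) and the E-box (CANNTG, in 72.3%). The table held promoters of 5 members, Alox5, Alox8, Alox12, Alox12b and Alox12e, and each of the 5 held a GC box. The motifs do not overlap in the Alox12e window, and a match describes letters, not a bound site.

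Alox12, the platelet-type enzyme, had 8 reads at E7.5 and 7 at E8.5 in wild type, 3 in KO1 and 13 in KO2. The knockout libraries lay on either side of the wild-type libraries. Relative to E8.5 WT the ratio was 0.627 in KO1 (0.105 to 2.75) and 1.87 in KO2 (0.695 to 5.54). Between the knockout libraries Alox12 was called, with a log2 change of 1.22 for KO2 over KO1, but on 3 and 13 reads the interval of the ratio ran from 0.821 to 16.3. A difference for Alox12 was not detectable at this depth.

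Alox8, whose product oxygenates arachidonic acid in mouse skin, had 6 reads at E7.5 and 2 at E8.5 in wild type, 0 in KO1 and 3 in KO2. No library exceeded 0.504 CPM. Since both E8.5 WT and the knockout libraries were at or under the floor of 3 reads, no fold is given.

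The epidermal barrier enzymes Alox12b and Aloxe3, which act in succession on ceramide-bound linoleic acid, shared their highest level in E7.5 WT. Alox12b had 9 reads at E7.5 and 0 at E8.5 in wild type, 1 in KO1 and 4 in KO2. Aloxe3 had 21 reads at E7.5 and 3 at E8.5 in wild type, 4 in KO1 and 10 in KO2. For both genes E8.5 WT was the lowest library and the knockout libraries lay between the wild-type stages.

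The ratio of Aloxe3 to E8.5 WT was 1.95 in KO1 (0.330 to 13.3) and 3.36 in KO2 (0.866 to 19.0), with log2 changes of 0.63 and 1.24. Its ratio to E7.5 WT was 0.270 in KO1 (0.0673 to 0.800) and 0.465 in KO2 (0.195 to 1.03). In KO1 the interval lay below the E7.5 WT level, whereas that of KO2 included no change. Against the floor of 3 reads Alox12b was at least 3.10-fold lower in E8.5 WT than in E7.5 WT, and the exact interval of the ratio ended at 0.490. Its ratio to E7.5 WT was 0.157 in KO1 (0.00359 to 1.14) and 0.434 in KO2 (0.0976 to 1.55).

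In the leukotriene branch, Alox5 had 2 reads at E7.5 and 5 at E8.5 in wild type, 3 in KO1 and 6 in KO2. Alox5ap had 7 reads at E7.5 and 10 at E8.5 in wild type, 9 in KO1 and 7 in KO2. Both genes showed overlapping intervals in all 4 libraries. For Alox5ap the ratio of KO1 to E8.5 WT was 1.32 (0.474 to 3.61) and that of KO2 was 0.706 (0.228 to 2.05), and the log2 changes of 0.33 and -0.40 had opposite signs.

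Per kb of annotated exon, which allows levels of different genes to be compared, the order in KO1 was led by Alox15 at 32.1 CPM per kb, with Alox5ap at 0.755, Alox12e at 0.464 and the remaining members under 0.1. In KO2 Alox15 stood at 29.8 CPM per kb, Alox12e at 0.494, Alox5ap at 0.405 and Alox12 at 0.261. In E8.5 WT Alox15 was again the highest at 2.52 CPM per kb, and Alox5ap was next at 0.573. At E7.5 Alox15 stood at 9.15 CPM per kb and Alox5ap at 0.414. Alox15 was thus the most abundant member per length in all 4 libraries, while neighbours below it in the order rested on at most 21 reads each and did not separate by their intervals from those next to them.

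**Figure D2:**
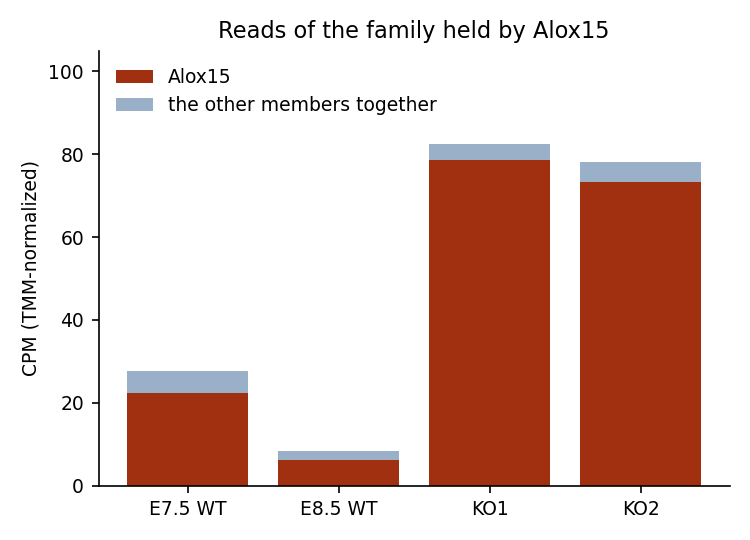
Summed level of the family in each library as TMM-normalized CPM, divided into Alox15 (lower segment) and the other members together (upper segment). The other members together ranged from 2.20 to 5.21 CPM, while Alox15 ranged from 6.18 to 78.7 CPM.

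The family as a whole took 329 reads at E7.5 and 103 at E8.5 in wild type, 692 in KO1 and 952 in KO2. In wild type Alox15 made up 81.2% (76.5% to 85.2%) of them at E7.5 and 73.8% (64.2% to 82.0%) at E8.5. In the knockout it made up 95.5% (93.7% to 96.9%) in KO1 and 93.7% (92.0% to 95.2%) in KO2. The share was higher in both knockout libraries than in both wild-type libraries, with no overlap of the intervals. It uses the knockout values by which Alox15 was chosen, so it is a description only.

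The other 7 members together had 62 reads at E7.5 and 27 at E8.5 in wild type, 31 in KO1 and 60 in KO2. Their summed level relative to E8.5 WT had a log2 ratio of 0.75 in KO1 (-0.04 to 1.55) and 1.16 in KO2 (0.49 to 1.88). Relative to E7.5 WT the log2 ratios were -0.50 in KO1 (-1.17 to 0.15) and -0.08 in KO2 (-0.62 to 0.45). This sum includes Alox12e, which was chosen by the contrast with E8.5 WT. Without Alox12e, a sum added after these values were seen, the other 6 members had 53, 27, 20 and 43 reads. Their log2 ratio to E8.5 WT was then 0.12 in KO1 (-0.79 to 1.005) and 0.68 in KO2 (-0.04 to 1.43), and to E7.5 WT -0.90 in KO1 (-1.72 to -0.14) and -0.34 in KO2 (-0.95 to 0.27). For these 6 members a difference from E8.5 WT was not detectable at this depth, and in KO1 their sum was below E7.5 WT beyond counting error. Aloxe3 gave 21 of the 53 reads at E7.5 and 4 of the 20 in KO1, and the sum without it was not tested.

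Calls of members were counted against the share of all tested genes called in the same way. In KO1, 2 of the 5 tested members were called higher than E8.5 WT (Alox15 and Alox12e), as were 4.97% of all genes, and in KO2, 3 members were (Aloxe3 in addition), as were 9.41% of all genes. In both knockout libraries 2 members were called higher, against 3.44% of all genes, and 0 were called lower, against 1.79%. The choice of the family fixed these counts, and nothing is read from them. Against E7.5 WT, 1 member was called higher in both knockout libraries (Alox15), with 6.91% of all genes, and 0 lower, with 2.7%. In the comparison of KO2 with KO1, 1 member was called higher (Alox12), with 5.99% of all genes, and 0 lower, with 4.89%.

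The comparison of the wild-type stages shares E8.5 WT with the choice of the family but not its knockout libraries. Between E7.5 and E8.5, 3 of the 5 tested members were called lower (Alox15, Alox12e and Aloxe3), with 7.82% of all genes, and 0 were called higher, with 12.2%. Alox15 was 3.63-fold lower in E8.5 WT (log2 change -1.83, interval of the log2 ratio -2.25 to -1.49), Alox12e was at least 3.10-fold lower against the floor of 3 reads (exact interval of the ratio ending at 0.490), and the ratio of Aloxe3 was 0.138 (0.0264 to 0.463). Alox12 and Alox5ap had log2 changes of -0.19 and 0.37. With 1 library per stage these differences have no replicate check.

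**Figure D3:**
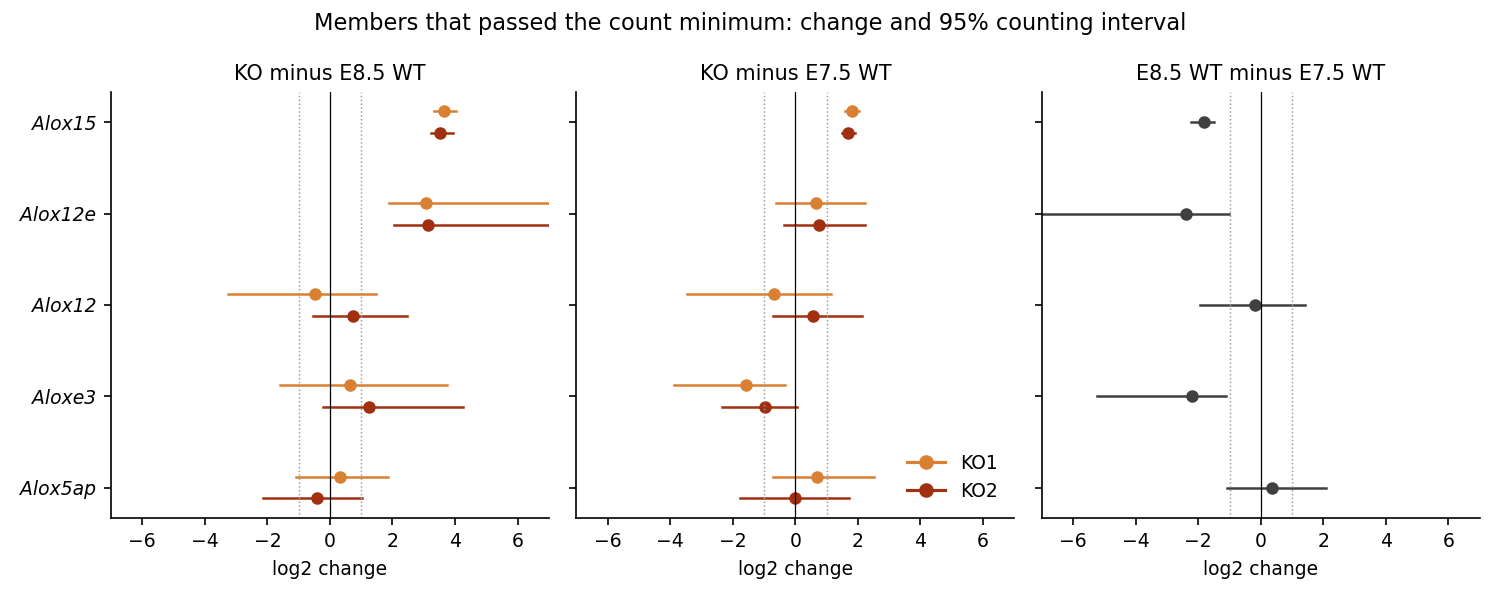
Log2 change of the 5 members that reached the count minimum, for each knockout library against E8.5 WT (left) and E7.5 WT (middle) and for E8.5 WT against E7.5 WT (right). Points are log2 changes with a prior count of 2, lines are exact 95% intervals of the log2 ratio of reads (lines that reach the frame are unbounded because a library had no read), and dotted lines mark changes of 1 and -1. Alox15 alone lies past 1 in both the left and the middle panel.

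In a two-sided edgeR quasi-likelihood test of the knockout libraries against E8.5 WT across all genes, 0 of 14393 genes (0%) passed an adjusted p of 0.05, and the smallest adjusted p was 0.0719 (Hbb-bh1). An unadjusted p under 0.05 was reached by 1039 genes, and DESeq2 called 35. The spread in this test came from the knockout libraries alone, and nothing in the sources used here says how the E8.5 WT library varied between embryos.

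Markers of other cells were read beside these values, since members of the family are known from leukocytes, platelets, mast cells and epidermis, and since fewer cells of a type and less RNA per cell cannot be told apart in whole-embryo libraries. The 12 macrophage and myeloid markers summed to 137 reads at E7.5 and 182 at E8.5 in wild type, 164 in KO1 and 308 in KO2, or 11.5, 14.8, 19.5 and 25.3 CPM. Mrc1 alone gave 8, 123, 116 and 25 of these reads, and 2, 4, 4 and 2 of the 12 genes were at 0. Without Mrc1 the sums were 10.8, 4.80, 5.72 and 23.2 CPM. The 9 megakaryocyte and platelet markers summed to 7.99, 15.9, 7.14 and 35.0 CPM, and Gp9 was at 0 in all libraries. The high sum in KO2 rests on Itgb3, which gave 394 of its 427 reads. Without Itgb3, KO2 was the lowest library at 2.71 CPM, against 4.20 CPM in E7.5 WT and 5.83 CPM in KO1. E8.5 WT was then the highest. The 11 mast cell and granulocyte markers summed to 1.60, 0.163, 0.357 and 2.46 CPM, and Fcer1a, Ms4a2, Elane, Ngp and S100a9 were at 0 in all libraries.

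The 11 epidermis markers in the table summed to 38.0, 16.8, 24.1 and 35.0 CPM, with Dsg3 at 0 throughout. This order, with E7.5 WT highest and E8.5 WT lowest, was also that of Aloxe3 and Alox12b, and the part of such cells in those values was not tested. The order rests on Sfn, which had 291, 29, 35 and 293 reads: without it the sums were 13.5, 14.5, 19.9 and 10.9 CPM.

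Maternal and extraembryonic markers differed between the knockout libraries. Genotyping of E8.5 embryos used extraembryonic tissue or yolk sac, and how much of it each library kept is not given in the sources used here. The 4 decidua markers summed to 144, 15.7, 28.5 and 139 CPM, the 7 uterine natural killer cell markers to 0.925, 0.163, 1.43 and 9.27 CPM, and the 8 uterine epithelium markers to 43.4, 41.7, 52.3 and 58.5 CPM. The 11 trophoblast markers summed to 286, 202, 458 and 955 CPM, with Prl3b1 and Tpbpa at 0 throughout, the 8 visceral endoderm markers to 6920, 7167, 4212 and 4010 CPM, and the 9 parietal endoderm markers to 1995, 1805, 2180 and 2591 CPM. Across KO1 and KO2, where decidua, uterine natural killer and trophoblast sums were all higher in KO2, Alox15 was at 78.7 and 73.2 CPM and Alox12e at 1.31 and 1.40 CPM. The decidua difference rested on Prl8a2, with 1318, 26, 64 and 1433 reads. Without Prl8a2 the decidua sums were 32.8, 13.6, 20.8 and 21.7 CPM. The myeloid, uterine epithelium, uterine natural killer cell, trophoblast and parietal endoderm sums were higher in both knockout libraries than in both wild-type libraries, as was Alox15. Without the gene with the most reads in each list (Mrc1, Wfdc2, Gzma, Hand1 and Col4a1, respectively), this held for the uterine natural killer cell and parietal endoderm sums but not for the other 3. The uterine natural killer cell sum was 12 reads in KO1 against 11 in E7.5 WT, and without Gzma 10 against 7. Its order between these libraries thus rests on few reads. Hand1 gave 3544 of the 3850 trophoblast reads in KO1, and without it the trophoblast sums were 70.0, 20.5, 36.4 and 624 CPM. The part of these cells in the level of Alox15 was not tested.

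On the chromosome, 6 of the 8 members lie on chromosome 11, in a group of Aloxe3, Alox12b and Alox8 within 71.9 kb and a group of Alox12, Alox12e and Alox15 spaced by gaps of 60.3 and 21.5 kb. The groups are 1044 kb apart. Alox5ap lies on chromosome 5 and Alox5 on chromosome 6. Within the second group the 3 genes did not share a pattern: Alox12 was not called against E8.5 WT in either knockout library.

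Of the 12 other genes in the table within 100 kb of Alox15 or Alox12e, 8 reached the count minimum. Of these, 1 was called higher in both knockout libraries than in E8.5 WT and 0 lower, where 3.44% and 1.79% of all tested genes were. With 8 genes, nothing is read from this count. The gene called was Slc16a11, a monocarboxylate transporter relative, with 62 reads at E7.5 and 18 at E8.5 in wild type, 36 in KO1 and 66 in KO2. Its log2 changes of 1.44 and 1.77 against E8.5 WT became -0.27 and 0.05 when the younger wild type was the reference. It was thus low in E8.5 WT alone, as Alox12e was.

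The closest tested gene on the other side of Alox15, Pelp1, a nuclear receptor coregulator, had 3315, 2106, 1179 and 1812 reads and log2 changes of -0.29 and -0.20. Bcl6b, a transcriptional repressor, had 122, 165, 97 and 50 reads and log2 changes of -0.21 and -1.67. The remaining tested neighbours (Slc16a13, 0610010K14Rik, Rnasek, Arrb2 and Med11) lay between -0.19 and 0.41 in both knockout libraries. The microRNA genes Mir497b, Mir497, Mir195a and Mir7115 had at most 2 reads in any library.

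**Figure D4:**
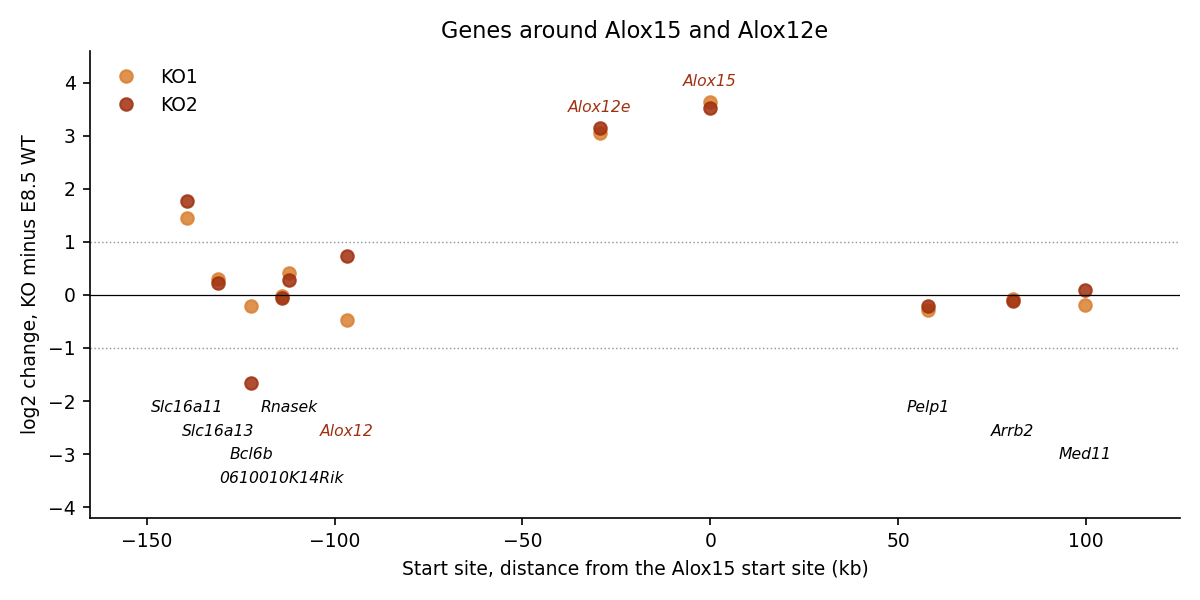
Log2 change against E8.5 WT in KO1 and KO2 (points) for tested genes around Alox15 and Alox12e, by the distance in kb of each start site from that of Alox15, with members of the family named in red. Alox15 and Alox12e lie above 3 in both libraries, Slc16a11 lies at 1.44 and 1.77, and no other gene is past 1 in both.

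The genes nearest in pattern were found by the Euclidean distance between log2 CPM values centred per gene over the 4 libraries, a measure that includes the contrast by which the family was chosen. Nearest to Alox15 were 2810047C21Rik1, an unnamed RIKEN transcript, at a distance of 0.53, the vesicular glutamate transporter gene Slc17a7 at 0.55, the prodynorphin gene Pdyn at 0.59, the folate enzyme gene Aldh1l1 at 0.71 and the elongation factor gene Eef1a2 at 0.75. Alox12e came at rank 6 with 0.87. Of these Slc17a7 had 10, 1, 34 and 26 reads and Aldh1l1 had 20, 4, 36 and 99, so the genes most like Alox15 in pattern had far fewer reads than Alox15. 2810047C21Rik1 had 4, 0, 12 and 13 reads and Pdyn had 4, 0, 12 and 12. Both reached the count minimum through the knockout libraries alone. With 0 reads in E8.5 WT, their distances depend on the prior count.

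Nearest to Alox12e were Lrrc38, a potassium channel subunit gene, at 0.35, the cytokine receptor genes Il27ra at 0.41 and Il17rc at 0.60, the kinase family gene Fam69b at 0.64 and the heat shock gene Hspa1a at 0.65. Lrrc38 had 21 reads at E7.5 and 3 at E8.5 in wild type, 21 in KO1 and 45 in KO2. Alox15 came at rank 25 from Alox12e. Since Alox12e had no read in E8.5 WT, distances from it depend on the prior count too.

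Genes that supply the substrate of lipoxygenases, use their products or act in related reactions were taken from 8 lists with 114 genes, of which 70 reached the count minimum. In both knockout libraries 7 of the 70 (10%) were called higher than E8.5 WT and 0 lower, where 3.44% and 1.79% of all tested genes were. Their median log2 change was 0.20 in KO1 and 0.23 in KO2, where all tested genes had -0.01 and 0.00. By edgeR, 6 had an unadjusted p under 0.05 and 0 an adjusted p under 0.05, and DESeq2 called 0. Some of the 70, among them Cyp4f39 of the 7 called, reached the minimum through the knockout libraries alone. Such genes leaned towards a higher value there, so the count of 7 carries no weight of its own.

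Of 12 tested phospholipases A2, which release arachidonic acid, 2 were called higher (Pla2g5 and Pla2g16) and 0 lower, with medians of 0.44 and 0.37. Pla2g5, a secreted form, had 23 reads at E7.5 and 2 at E8.5 in wild type, 12 in KO1 and 184 in KO2, and its log2 changes were 2.24 and 5.48 (intervals of the log2 ratio 0.97 to 6.34 and 4.66 to 9.59). The knockout libraries differed widely, and KO1 was below E7.5 WT. Pla2g16, a phospholipase of adipose tissue, had 80, 47, 83 and 184 reads and log2 changes of 1.33 and 1.93. The list's most abundant gene, Pla2g6, had 945, 619, 429 and 588 reads and log2 changes of 0.02 and -0.06. Next by reads were Pla2g15 (log2 changes 0.54 and 0.47) and Pla2g12a (-0.41 and 0.22).

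Of 5 tested genes of leukotriene synthesis and breakdown, 0 were called in either direction, with medians of 0.03 and -0.16. Lta4h, whose product makes leukotriene B4, had 1452, 1471, 1028 and 1100 reads and log2 changes of 0.03 and -0.41. Mgst3 and Ptgr1, a glutathione transferase and a reductase, had log2 changes of -0.52 and -0.16, and of 0.21 and 0.57. Ltc4s, which makes leukotriene C4, had 7, 1, 1 and 2 reads and was under the count minimum. Of the 10 receptors for leukotrienes, hydroxy acids and lipoxins, 2 reached the minimum and 0 were called: Cysltr1 had log2 changes of 0.75 and 0.01, and Cmklr1, also the chemerin receptor, of 0.51 and 1.15.

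Prostanoid synthesis, the cyclooxygenase branch, had 1 of 8 tested genes called higher and 0 lower, with medians of 0.33 and 0.27. The gene called was Ptgds, a prostaglandin D synthase, with 26, 11, 17 and 59 reads and log2 changes of 1.04 and 2.23. Ptges3, the most abundant, had log2 changes of -0.32 and -0.15, the prostacyclin synthase gene Ptgis of 0.17 and 0.74, and the carbonyl reductase gene Cbr1 of -0.30 and 0.25. The cyclooxygenase genes were rare: Ptgs1 had 8, 13, 25 and 10 reads and Ptgs2 had 2, 7, 4 and 4. Of 3 tested prostanoid receptors 0 were called, with medians of 0.02 and -1.30. Ptger4 had log2 changes of 0.58 and 1.79, Ptgfr of 0.02 and -1.52, and Tbxa2r of -0.24 and -1.30.

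Of 10 tested genes that act with Alox12b and Aloxe3 in the ceramides of the epidermal barrier, 2 were called higher (Cyp4f39 and Nipal4) and 0 lower, with medians of 0.26 and 0.22. Cyp4f39, a fatty acid hydroxylase, had 7, 4, 9 and 13 reads and log2 changes of 1.31 and 1.30. Nipal4, a membrane protein whose human counterpart is mutated in ichthyosis, had 19, 4, 8 and 67 reads and log2 changes of 1.17 and 3.49. The list's abundant genes Elovl1 (0.36 and 0.25) and Ugcg (-0.20 and 0.02) were not called. That E8.5 WT lay below both knockout libraries for these 2 genes follows from the call itself. Against E7.5 WT, which the call did not use, E8.5 WT was lower for both, as for Aloxe3.

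Of 19 tested genes of lipid peroxidation and ferroptosis, a form of cell death driven by peroxidized phospholipids, 2 were called higher (Gpx7 and Aifm2) and 0 lower, with medians of 0.03 and 0.02. Gpx7, a peroxidase of the endoplasmic reticulum, had 75 reads at E7.5 and 116 at E8.5 in wild type, 245 in KO1 and 239 in KO2. Its log2 changes were 1.61 and 1.04 against E8.5 WT. Relative to E7.5 WT they were 2.18 and 1.61. Gpx7 was thus the 1 of the 70 tested pathway genes called above both wild-type stages, where 0.75% of all tested genes were. Nothing is read from this count. Aifm2, which protects against ferroptosis, had 32, 7, 13 and 47 reads and log2 changes of 1.21 and 2.43. Gpx4, which reduces peroxidized phospholipids, had 1852, 1200, 879 and 1388 reads and was not called. The most abundant genes, Fth1 (-0.10 and -0.07), Ftl1 (-0.11 and -0.17) and Gpx3 (-0.35 and 0.15), were not called either.

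Interleukin-4 and interleukin-13 are known inducers of Alox15 in myeloid cells. Of 11 tested genes of this pathway 0 were called, with medians of 0.33 and 0.58. Il4 and Il13 had 0 reads in all 4 libraries, and the alternative macrophage activation markers Chil3 and Retnla had 0 reads in both wild-type libraries and at most 4 in a knockout library. Arg1, the arginase gene induced by this pathway in macrophages, had 3, 421, 279 and 11 reads and divided the libraries differently from Alox15, with KO1 near E8.5 WT and KO2 near E7.5 WT. Stat6, the transcription factor of the pathway, had 613, 397, 418 and 589 reads and log2 changes of 0.62 and 0.58 (edgeR adjusted p = 0.669 over all genes tested). The kinase genes Jak1 (0.33 and 0.61) and Tyk2 (0.68 and 0.35) were not called.

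**Figure D5:**
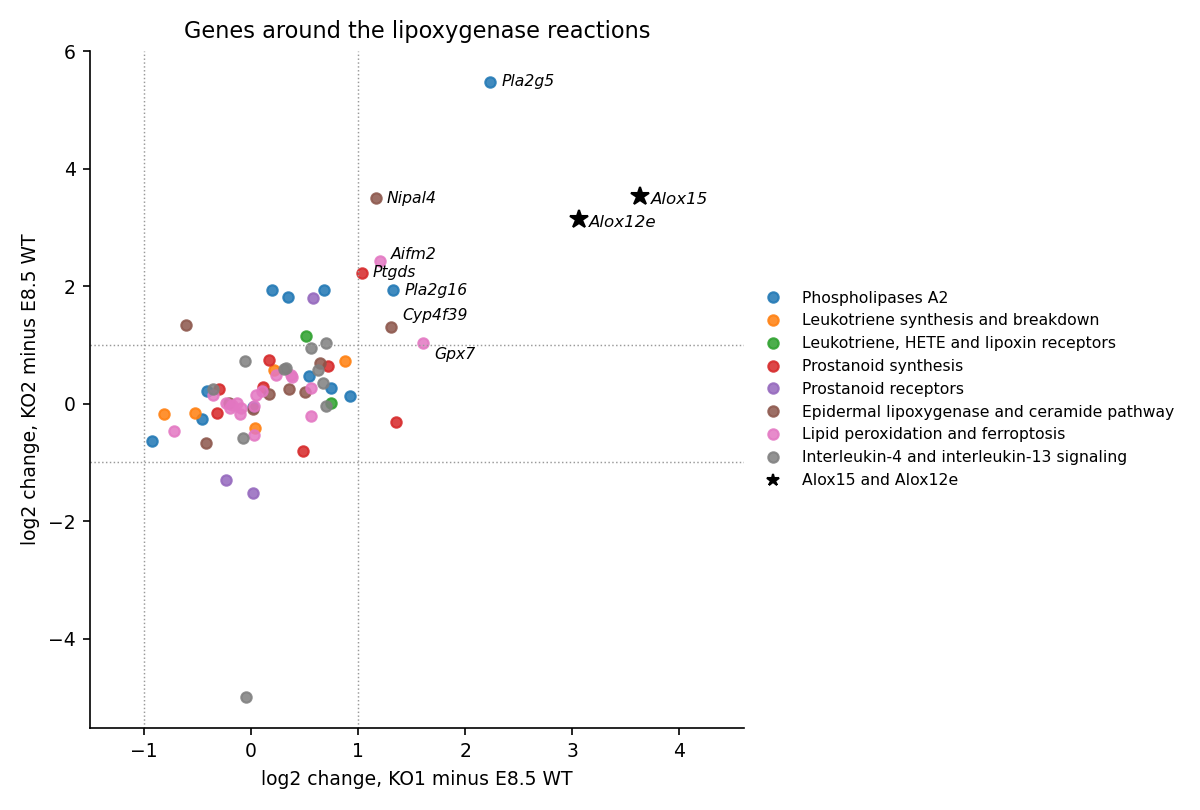
Log2 change against E8.5 WT in KO1 (horizontal) and KO2 (vertical) of the 70 tested pathway genes, coloured by list, with Alox15 and Alox12e as stars and dotted lines at 1 and -1. The 7 genes called in both libraries are named, and Pla2g5, at 2.24 in KO1 and 5.48 in KO2, lies below Alox12e and Alox15 in KO1 and above both in KO2.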

How the data were processed

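Polyadenylated RNA of whole embryos, apart from extraembryonic tissue or yolk sac used for genotyping at E8.5, was sequenced from stranded libraries. The authors deposited raw counts per gene for 4 libraries, without normalization. Per their methods and processing notes, reads were trimmed with cutadapt 2.8, checked with FastQC 0.11.7, aligned to mm10 with HISAT2 2.1.0, sorted with SAMtools 1.9 and counted over exons with featureCounts 2.0.0. Groups came from the sample labels.

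Counts were normalized by TMM over 4 libraries in edgeR 4.0.16 (R 4.3.3). A minimum of 10 counts in any library kept 14393 genes. Calls used the study's criterion, a log2 change past 1 or -1, with no p-value, since each wild-type stage had 1 library. The edgeR quasi-likelihood test with Benjamini-Hochberg adjustment compared KO with E8.5 WT over all genes kept, and DESeq2 1.42.0 was an alternative. The labels do not say that the KO libraries came from separate litters, so p-values measure only the spread between these libraries. The pipeline was tested on simulated data with known changes.

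The members, gene lists and markers were chosen with earlier results of these data known. Named genes were all members, Ddx6, the called and the 3 most abundant genes of each pathway list, the 5 genes nearest to Alox15 and to Alox12e in pattern, and genes within 100 kb of either. The values of 1 gene that meets this rule are not reported here. Ltc4s, Ptgs1, Ptgs2, Gpx4, Il4, Il13, Arg1, Chil3 and Retnla are exceptions, added with their values already known. Positions and coding sequences came from GENCODE vM21 (GRCm38, the assembly of mm10), and promoters from RefSeq (GRCm38.p6). Coding sequences were aligned with Biopython 1.88, intervals computed with SciPy 1.17.1 and figures drawn with matplotlib 3.10.9 in Python 3.11.15. The marker gene Flg was not matched in the table. Marker sums without the gene of most reads in each list, and the family sum without Alox12e, were added after the values were seen.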

Additional observations from a re-analysis of the deposited data

How the results depend on the processing

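The settings tried in turn were a prior count of 0.5, a threshold of 2, no filter or a minimum of 50 counts, plain CPM, DESeq2 in place of edgeR or for its size factors alone, and the omission of 1 KO library. Of 53 alternative values for 8 results, 40 stayed within the spread between replicates or 1.5 times the count, 13 moved and 0 reversed. Alox15 stayed called in both KO libraries against E8.5 WT under each alternative scaling, filter, prior count and threshold. At a minimum of 50 counts Alox15 was the only member tested, which left 1 member called higher in both KO libraries, 1 between the wild-type stages and 0 between KO2 and KO1. With no filter these last counts were 5 and 2, since members with few reads entered. At a threshold of 2, no member (0) was above both wild-type stages, 1 pathway gene was called and 0 members between KO2 and KO1. With a prior count of 0.5 the mean log2 change of Alox12e was 4.97, since its E8.5 WT count is 0. The edgeR count of 0 genes became 35 with DESeq2, 7 with no filter and 1 with DESeq2 size factors, and the cause was not tested. Without each KO library in turn, members called higher than E8.5 WT numbered 2 to 3, members above both wild-type stages 1 in each case, and pathway genes 8 to 17, the 17 without KO1. Alox15 then ranged from 3.53 to 3.63 and Alox12e from 3.06 to 3.14 on the log2 scale. No edgeR test was run with 1 KO library, which leaves no residual degrees of freedom. No paired analysis was possible because the KO group alone has replicates. Members other than Alox15 had at most 21 reads per library, which limits what could be detected for them.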
